A study of Mus musculus with 4 samples.

Results

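The cells described are T cells caught in the cell cycle inside mouse tumors, chosen by their RNA alone. A called barcode was taken as a cycling T cell when it had 200 or more detected genes with no upper limit, at most 5% of its unique molecular identifiers (UMIs, each standing for 1 captured transcript) from mitochondrial genes, at least 1 UMI of the CD3 genes Cd3d, Cd3e or Cd3g, at least 2 UMIs of Mki67 and at least 1 UMI of Top2a. The rule selected 114 cells of the 27758 cells with CD3 RNA that passed the same limits, and of 38860 called barcodes in all. The 26595 CD3 RNA-positive cells without any Mki67 UMI served as the comparison, and 1049 cells with Mki67 but short of the rule were in neither set. Mki67 and Top2a chose the cells, so their levels, and every RNA difference between cycling and Mki67-negative cells, are given as descriptions with no test. Tests between states were made only for the difference of the hairpin's effect and for the surface tags, neither of which chose the cells. For cell cycle genes that difference is not independent of the rule, which asks for cycle RNA in the members of both groups.

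The 4 libraries hold polyadenylated RNA and antibody-derived tags of the same cells (CITE-seq, a droplet method in which DNA-barcoded antibodies report surface proteins). Live CD3+ cells were sorted from subcutaneous tumors of 105K cells, a Tsc2-deficient mouse kidney tumor line. The mice were male wild-type C57BL/6J, 6 weeks old when the tumor cells were injected, and 80 tumors were pooled per group. In the 2 sh-NC libraries the tumor cells carried a non-targeting short hairpin RNA, and in the 2 sh-B7-H3 (1) libraries a hairpin aimed at Cd276, which encodes B7-H3, an immune checkpoint protein. By the study's methods the hairpin-bearing tumor cells were heterogeneous pools selected with puromycin, and the T cells of both groups were the unmodified cells of the host. Cd276 had 5 UMIs in all cycling cells. Because the hairpin was in the tumor cells and not in the T cells, Cd276 RNA could not check the labels here. By the design text of the series, each pool of tumors was sorted and then divided over a pair of lanes, while a legend of the study calls the libraries independent samples. Every p-value therefore speaks of the spread between these libraries, which may be technical, and not of other mice.

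A T cell that meets its antigen leaves its resting state, copies its DNA in S phase and then separates its chromosomes in mitosis. S phase uses the MCM helicase that opens DNA, the sliding clamp Pcna and enzymes that make nucleotides, such as Tyms and Rrm2, whereas mitosis uses Cdk1 with the B cyclins, the Aurora and Polo kinases and the proteins of centromere and spindle. Mki67 coats condensed chromosomes and is absent from resting cells, and Top2a untangles sister DNA strands. In tumors, dividing T cells are known to include CD8+ effector cells, which kill through granzymes and perforin, and Foxp3+ regulatory T cells, which restrain the response.

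The promoters of the genes on which the selection and the results turn are shown because many mitotic genes are known to share a pair of short sequences, the CCAAT box and the cell cycle homology region TTTGAA, and because the mitotic genes are described as a list below. Windows run from 250 bases before to 50 bases after the RefSeq start site (GRCm38.p6, 300 bases, 5′ to 3′), with CCAAT and TTTGAA in capitals where they occur on either strand (ATTGG and TTCAAA are their reverse complements).
Mki67 promoter, chr7:135716330-135716629, minus strand: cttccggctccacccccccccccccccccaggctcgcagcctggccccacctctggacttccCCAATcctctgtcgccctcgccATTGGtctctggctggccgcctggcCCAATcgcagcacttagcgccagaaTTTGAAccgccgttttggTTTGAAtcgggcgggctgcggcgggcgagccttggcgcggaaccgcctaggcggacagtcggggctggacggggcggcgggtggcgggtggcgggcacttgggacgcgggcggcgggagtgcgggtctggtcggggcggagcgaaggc
Top2a promoter, chr11:99024140-99024439, minus strand: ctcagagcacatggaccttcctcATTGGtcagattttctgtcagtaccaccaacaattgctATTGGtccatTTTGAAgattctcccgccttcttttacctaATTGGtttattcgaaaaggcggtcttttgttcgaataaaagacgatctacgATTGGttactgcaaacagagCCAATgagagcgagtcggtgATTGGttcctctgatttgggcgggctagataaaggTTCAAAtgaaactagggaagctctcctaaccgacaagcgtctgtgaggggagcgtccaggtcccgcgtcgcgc
Cdk1 promoter, chr10:69352863-69353162, minus strand: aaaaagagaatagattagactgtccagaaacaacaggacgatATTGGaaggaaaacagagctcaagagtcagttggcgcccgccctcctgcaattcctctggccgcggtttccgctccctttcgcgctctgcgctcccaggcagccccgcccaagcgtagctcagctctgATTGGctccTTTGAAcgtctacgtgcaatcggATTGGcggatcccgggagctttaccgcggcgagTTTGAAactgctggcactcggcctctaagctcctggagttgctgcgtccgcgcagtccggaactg
Cenpf promoter, chr1:189688037-189688336, minus strand: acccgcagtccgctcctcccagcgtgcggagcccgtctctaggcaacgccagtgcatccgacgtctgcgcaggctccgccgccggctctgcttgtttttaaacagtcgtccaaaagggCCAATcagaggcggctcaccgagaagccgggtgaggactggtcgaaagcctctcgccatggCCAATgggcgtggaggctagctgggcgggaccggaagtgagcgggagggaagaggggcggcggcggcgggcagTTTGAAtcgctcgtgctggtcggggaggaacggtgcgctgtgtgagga
Mcm3 promoter, chr1:20820263-20820562, minus strand: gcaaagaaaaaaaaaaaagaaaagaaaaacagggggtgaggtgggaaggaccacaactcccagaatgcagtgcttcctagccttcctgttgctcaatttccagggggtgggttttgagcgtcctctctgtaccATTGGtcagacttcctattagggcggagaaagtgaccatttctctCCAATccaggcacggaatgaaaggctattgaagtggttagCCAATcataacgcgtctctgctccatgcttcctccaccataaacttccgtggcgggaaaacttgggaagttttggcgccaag
Mki67 and Top2a defined the cells, Cdk1 drives entry into mitosis, Cenpf is a centromere protein called lower in sh-B7-H3 (1) cycling cells, and Mcm3 is a helicase subunit of S phase that stands for contrast. TTTGAA was present in 73.9% of the 23 promoters found for the mitosis genes listed below, in 12% of the 25 found for the replication genes and in 17.9% of all 32851 promoters of this length. CCAAT was present in 82.6%, 56% and 37.4%, and both were present in 69.6%, 8% and 6.95%. Birc5, a cycle gene that the rule did not use, held neither in its window. A match describes letters in a window and is not evidence that a factor binds there.

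The cycling cells numbered 19 and 16 in the sh-NC libraries and 31 and 48 in the sh-B7-H3 (1) libraries, and no member barcode was shared between libraries, although 17 to 35 called barcodes were shared by each pair. The markers given for these cells fitted the label. Birc5, a survivin protein of the dividing chromosome, had 125, 189, 108 and 53.9 CPM (the UMIs of a gene scaled to the usual common total of all RNA UMIs in the summed cells) in the cycling cells of sh-NC 1, sh-NC 2, sh-B7-H3 (1) 1 and sh-B7-H3 (1) 2, an order kept below, against 0.438 to 1.31 CPM in Mki67-negative cells. Stmn1, a microtubule regulator, had 493, 429, 283 and 227 CPM against 21.9 to 22.4, and Cdk1 had 94.6, 36.2, 22.5 and 20.9 CPM against 0.666 to 2.88. For these 3 markers every cycling sum lay above every Mki67-negative sum. Within cells, 76 of the 114 members held a UMI of Birc5, Stmn1 or Cdk1 (57.9 to 71.0% of a library), against 30.6 to 39.5% of Mki67-negative cells of matched depth, which are described next. At least 3 UMIs of the mitosis list were held by 95 members, against 43.4 to 59.0% of those cells. At least 3 UMIs of the replication list were held by 110 members but also by 88.4 to 92.9% of the cells of matched depth. At the edge of the rule, 28 members had exactly 2 Mki67 UMIs and 1 Top2a UMI, while 129 cells with 2 Mki67 UMIs and no Top2a and 146 cells with 1 UMI of each stayed outside.

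Cycling cells were deeper than other T cells. Their median was 20798, 19735, 18478 and 24341 RNA UMIs, against 8881, 9617, 7480 and 7699 in Mki67-negative cells, and 91 of the 114 had over 3000 detected genes, the upper limit of the study's own filter. Because the rule asks for a number of UMIs, deep barcodes meet it more easily. Levels and shares were therefore also compared with those of depth-matched cells, while the test of the hairpin's effect between states used all Mki67-negative cells. The depth-matched cells were the 20 Mki67-negative cells of the same library nearest in RNA UMIs to each member, with medians of 18512 to 24270 UMIs. The study's methods describe loading above the usual density, which raises the chance of droplets with more than 1 cell, and the RNA of other cells in the member barcodes is described next.

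By lineage RNA (Cd4, the coreceptor of helper and regulatory cells, against Cd8a and Cd8b1, the coreceptor of cytotoxic cells), 27 members were CD4, 30 were CD8, 5 were neither and 52 held both, and of these 52 the tags also called 48 both. Barcodes of both lineages made up 42.1, 31.3, 41.9 and 54.2% of the cycling cells. They made up 46.8, 38.1, 53.4 and 54.2% of the depth-matched cells, and 12.7 to 14.8% of all Mki67-negative cells. In each library the depth-matched share lay within the exact 95% binomial interval of the members (39.2 to 68.6% in the library with the most members). Both-lineage members had a median of 39462 UMIs and 5677 genes, against 12456 UMIs in CD4 and 16035 in CD8 members. At least 5 UMIs of myeloid and B cell markers, which the sort should exclude, were present in 12, 10, 18 and 30 members, 58.1 to 63.2% of a library, against 49.4 to 60.7% of depth-matched and 21.2 to 24.7% of all Mki67-negative cells. Their part in the results was not tested, and the main results are given below also for the 62 members that do not hold both lineages and for the 44 with fewer than 5 myeloid and B cell UMIs.

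**Figure D1:**
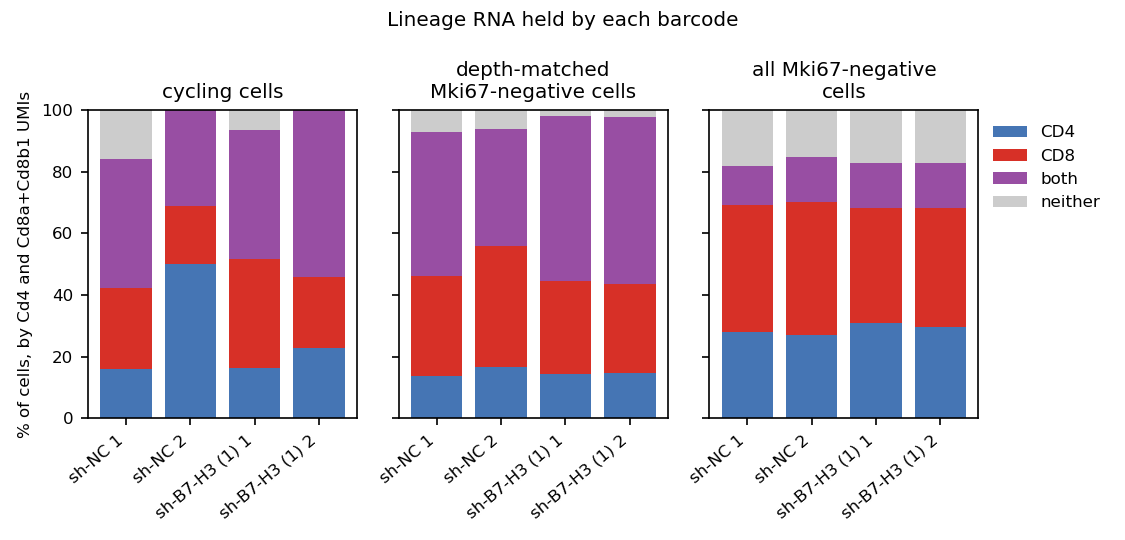
Percent of barcodes (y axis) in each library (x axis) that held CD4, CD8, both or neither lineage RNA, for cycling cells, depth-matched Mki67-negative cells and all Mki67-negative cells. Barcodes of both lineages make up 31.3 to 54.2% of the cycling cells, close to the depth-matched cells and well above all Mki67-negative cells.

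To determine whether the share of cycling cells differs between the groups, members were counted over CD3 RNA-positive cells. Cycling cells were 19 of 9534 and 16 of 8305 cells in the sh-NC libraries (0.199%, exact 95% interval 0.120 to 0.311, and 0.193%, 0.110 to 0.313). They were 31 of 4255 and 48 of 5664 in the sh-B7-H3 (1) libraries (0.729%, 0.496 to 1.03, and 0.847%, 0.625 to 1.12). Both sh-B7-H3 (1) libraries lay above both sh-NC libraries and their binomial intervals, which cover counting error only, did not overlap. The share averaged 0.196 ± 0.00469% in sh-NC and 0.788 ± 0.0841% in sh-B7-H3 (1) (SD, n = 2 each), a ratio of 4.02. An exact permutation test, two-sided, gave p = 0.333, which is the lowest value possible with 2 libraries a group. The mitochondrial limit removed 16.9 and 16.5% of called barcodes in sh-NC and 34.6 and 34.0% in sh-B7-H3 (1), and the members had a median of 2.81, 2.74, 3.45 and 3.68% mitochondrial UMIs. With a limit of 10% the ratio of the shares was 4.53.

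The higher share in sh-B7-H3 (1) was present in every subset counted. The ratio was 3.35 without barcodes of both lineages, 4.25 without barcodes with 5 or more myeloid and B cell UMIs, 3.14 with at most 3000 genes, 3.65 with at least 3 Mki67 and 2 Top2a UMIs, and 3.18 after every cell was thinned to 3000 UMIs, where 1, 2, 3 and 2 members were left. For Mki67 alone at 3000 UMIs per cell, 0.763, 1.03, 2.89 and 2.54% of T cells held a UMI, a ratio of 3.02. As a background, naive-type cells of a single lineage (at least 1 UMI each of Ccr7, Tcf7 and Lef1, which mark resting cells) were counted in the same way, and 0.193, 0.303, 1.08 and 0.925% of them held a Mki67 UMI. For this Mki67 share the background was thus higher in sh-B7-H3 (1) too and below the share of all T cells in each library. By the rule, without thinning, 2, 5, 3 and 5 of these cells passed (0.055, 0.151, 0.461 and 0.513%). Of all single-lineage cells 0.121, 0.189, 0.552 and 0.575% passed. With barcodes of both lineages kept, 0.163, 0.1598, 1.187 and 1.497% of naive-type cells passed. Those shares lay above that of all T cells in both sh-B7-H3 (1) libraries (0.729 and 0.847%) and below it in sh-NC. The single-lineage naive-type cells had a median depth before thinning of 9876.5 to 11415 UMIs, against 7608 to 9625 in all T cells. Among the members, 59 held all 3 naive-type genes, and 43 of those were barcodes of both lineages.

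**Figure D2:**
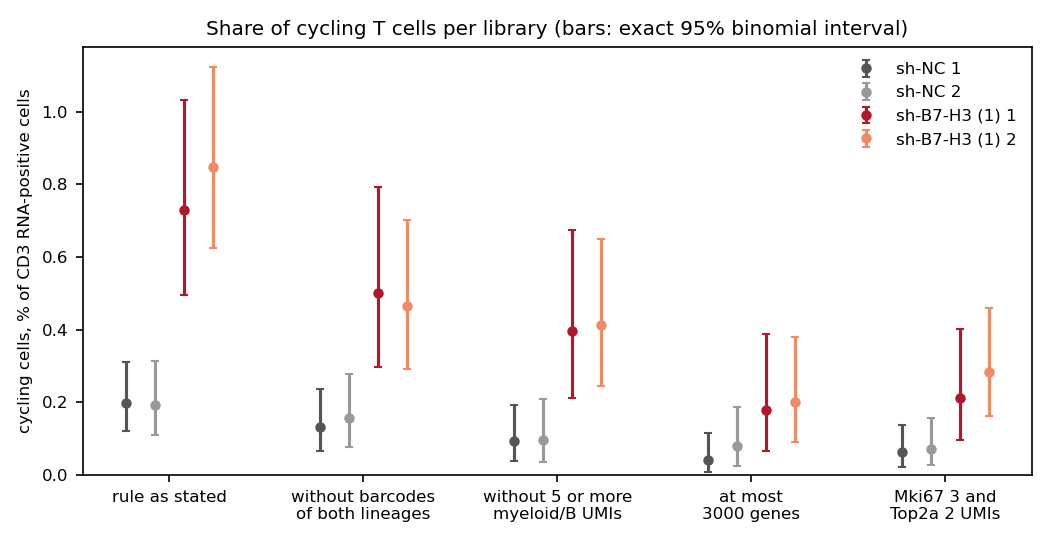
Cycling cells as a percent of CD3 RNA-positive cells (y axis) in each library, for the rule and 4 restrictions of it (x axis), with exact 95% binomial intervals as bars. Under each restriction both sh-B7-H3 (1) libraries lie above both sh-NC libraries, although the intervals overlap with at most 3000 genes and with the stricter rule.

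The state of the cycling cells was then compared with that of Mki67-negative cells, library by library, as a description. Of the 2213 genes with at least 50 CPM in either state of every library, 41.4% were higher in cycling cells in 4 of 4 libraries and 7.55% lower, and the median ratio of cycling to Mki67-negative cells was 1.13. Of the 26 genes of DNA replication, 25 were higher in all 4 libraries, with a median ratio of 4.31 (3.67 against depth-matched cells). Rrm2, which supplies deoxynucleotides, had 22.1, 49.1, 33.7 and 19.7 CPM against 0.776 to 1.97. Pcna, also used in DNA repair, had 159, 124, 157 and 154 CPM against 70.0 to 81.7, a ratio of 1.91. Of the 26 genes of mitosis, 25 were higher in all 4 libraries, with a median ratio of 33.5 (35.9). Ube2c, which marks cyclins for destruction, had 127, 124, 64.6 and 18.6 CPM against 0.441 to 2.26, and the cyclin Ccnb2 had 30.2, 155, 77.6 and 30.5 CPM against 0.164 to 1.47. Both lists kept ratios of this size in members without both lineages, 6.19 and 39.1. These genes act in the same process as the rule genes, so their height is no independent sign that the cells divide.

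The 15 genes with the largest ratios among those of at least 50 CPM, leaving out the genes of the rule and mitochondrial, ribosomal, receptor segment, immunoglobulin and rRNA-bearing genes, are named here. Beside the survival gene Birc5 (ratio 184) and Stmn1 (16.1) they included the linker histone Hist1h1b (140), the clamp partner Pclaf (103), the histone genes Hist1h2ap (23.1) and Hist1h2ae (11.4), the chromatin protein Hmgb2 (6.63), the Cdk subunit Cks2 (6.17), the centromere histone Cenpa (6.13), the transcript Lockd (4.96), the DNA ligase Lig1 (4.78) and the nuclear lamina gene Lmnb1 (4.12). The remaining 3 were the complement genes C1qa (5.93), C1qc (5.90) and C1qb (4.08), which macrophages express. With fewer than 5 myeloid and B cell UMIs per barcode the ratio of C1qa was 0.557, and C1qb and C1qc had median ratios of 0. These genes are among the markers counted for that limit, so their fall was set by it. Of the 12 myeloid markers, 9 were higher in all 4 libraries, with summed levels of 11522, 1348, 1920 and 1263 CPM against 243 to 876 CPM, and none was at 0. The B cell list had 183 to 331 CPM against 189 to 231. The NK list had 6.04 to 32.3 CPM against 4.82 to 29.8, with Ncr1, Klrb1c, Klra4 and Klra8 at 0. The gamma-delta list had 18.1 to 114 CPM against 32.5 to 101, with Trdv4 at 0, and the tumor and stroma list 49.1 to 56.8 CPM against 45.6 to 57.2, with Col3a1 and Dcn at 0.

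Over all members, regulatory T cell genes had the largest median ratio among the T cell lists outside the cell cycle. Of the 12 members, 7 were higher in cycling cells in all 4 libraries and none was lower in all 4, with a median ratio of 2.74 (2.70 against depth-matched cells, 3.02 without barcodes of both lineages). Without barcodes rich in myeloid and B cell UMIs the median ratio was 1.48, with 3 of 12 genes higher in all 4 libraries, below the inhibitory receptor list (2.24) and the effector transcription factors (1.79). Foxp3, the factor that defines the regulatory lineage, had 68.4, 87.9, 67.4 and 52.7 CPM against 18.1 to 37.9, so every cycling sum exceeded every Mki67-negative sum. Ikzf2, a transcription factor of stable regulatory cells, had 279.8, 388, 281 and 249.5 CPM against 62.0 to 176. Klrg1, a marker of terminally differentiated effector and regulatory cells, had 90.6, 122, 15.0 and 65.8 CPM against 10.1 to 23.3 and was not higher in sh-B7-H3 (1) 1. Ctla4, an inhibitory receptor of regulatory cells, and Tnfrsf9, a costimulatory receptor, had median ratios of 2.70 and 2.83. In contrast Izumo1r, the folate receptor of regulatory cells, had a ratio of 1.09. At least 1 Foxp3 UMI was present in 42.1, 50, 41.9 and 41.7% of the members, against 15.8, 15.6, 29.5 and 26.5% of depth-matched cells.

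Regulatory genes were also found in members of the CD4 lineage, which were 3, 8, 5 and 11 cells. Foxp3 was held by 2, 4, 1 and 8 of them, 15 of 27 (55.6%). It was held by 8.33, 23.1, 23 and 18.6% of depth-matched CD4 cells (the 20 Mki67-negative CD4 cells nearest in depth to each member), by 10.8 to 14.6% of all CD4 Mki67-negative cells and by 6.87 to 13.0% of CD4 naive-type cells. The 1 of 5 cells in sh-B7-H3 (1) 1 thus did not exceed its depth-matched share. Ikzf2 was found in 24 of 27, against 18.3 to 58% of depth-matched cells, Icos, a costimulatory receptor, in 22 against 35 to 48.6%, Tnfrsf4, also costimulatory, in 19 against 28.3 to 44% and Klrg1 in 12 against 5 to 14.5%. The granzyme Gzmb was found in 4 of 27 and perforin (Prf1) in 4 of 27. Prf1 was thus found in 14.8% of them, against 23.1 to 43.6% of depth-matched cells, and Gzmb in the same share against 3.33 to 13%. Other effector and inhibitory receptor genes varied between libraries. Gzmk, Eomes, Pdcd1 and Lag3 were found in 7, 8, 12 and 9 of 27. In sh-B7-H3 (1) 1 each was held by 4 of 5, against 40, 44, 62 and 58% of depth-matched cells. In sh-B7-H3 (1) 2 they were held by 1, 2, 3 and 2 of 11, against 31.4, 35, 44.5 and 48.6%. Nkg7 was found in 14 of 27 against 25 to 74%, and Ccl5 in 21 against 33.3 to 92%.

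Members of the CD8 lineage carried effector genes, and 22 of these 30 cells came from sh-B7-H3 (1). All 30 held Nkg7, a cytotoxic granule protein, as did 97.7 to 99.1% of depth-matched CD8 cells, so Nkg7 did not set them apart. Prf1 was found in 5 of 8 sh-NC and 12 of 22 sh-B7-H3 (1) members, against 60 and 60% and 48.2 and 51.8% of depth-matched cells. It did not set them apart either. Gzmk was found in 5 of 8 sh-NC and 20 of 22 sh-B7-H3 (1) members, against 5 and 6.67% of depth-matched CD8 cells in sh-NC and 43.6 and 40.5% in sh-B7-H3 (1). The inhibitory receptor Pdcd1 was found in 6 of 8 and 19 of 22, against 9 and 6.67% and 38.6 and 41.8%. Lag3, another inhibitory receptor, was found in 3 of 8 and 19 of 22, against 3 and 5% and 40.9 and 41.8%. Eomes, a transcription factor of effector and exhausted CD8 cells, was found in 18 of 22 sh-B7-H3 (1) members, against 40 and 44.5%, but in 2 of 8 sh-NC members, against 28 and 31.7%, so it was not more frequent in the sh-NC members. Gzmb was found in 6 of 8 and 9 of 22, against 10 and 8.33% and 24.1 and 26.4%, and Foxp3 in 3 of 8 and 3 of 22, against 6 and 0% and 7.27 and 9.09%. The median depth of these members was 16035 UMIs, and CD8 naive-type cells, with 10848 to 12881.5 UMIs, held Gzmb in 3.06 to 12.0%.

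Over all members the effector lists had smaller median ratios than the cycle and regulatory lists. The cytolytic list had a median ratio of 1.05 with 4 of 13 genes higher in all 4 libraries: Gzmb had 117, 173, 147 and 110 CPM against 31.3 to 73.2, a ratio of 2.91, whereas Prf1 and Nkg7 had 1.02 and 0.935. Gzma was at 0 in both sh-NC libraries and had 130 CPM in sh-B7-H3 (1) 1 and 1.20 in sh-B7-H3 (1) 2. The cytokine and chemokine list had a median ratio of 0.719, with Ifng at 32.2, 20.7, 132 and 132 CPM against 12.6, 16.1, 91.1 and 77.4. Of the 9 genes of the inhibitory receptor list, which also holds the ectoenzyme genes Entpd1 and Cd38 and the nuclear factor gene Tox, 6 were higher in all 4 libraries, with a median ratio of 1.45, and Havcr2 (Tim-3) had the largest ratio among them, 2.91. Of the 12 glycolysis genes found, 10 were higher in all 4 libraries with a median ratio of 1.35, led by the hexokinase Hk2 (2.70), Tpi1 (2.14) and Gapdh (1.73), of which the last pair convert triose phosphates. Hk2 was held by 0 of 30 CD8 and 3 of 27 CD4 members, so most of its UMIs came from other barcodes. The effector transcription factors had a median ratio of 1.52 and the IL-2 receptor list 1.18. The cycle inhibition list had a median ratio of 1.15, the interferon response list 1.02 and the immediate early list 0.935.

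Genes of resting cells were not lower throughout when set against all Mki67-negative cells. The resting and memory list had a median ratio of 0.922 (0.760 against depth-matched cells), with Tcf7, a transcription factor of resting T cells, at 147, 274, 210 and 223 CPM against 192 to 319. Against depth-matched cells 7 of its 12 genes were lower in all 4 libraries and 0 were higher. Of the 2213 genes above 50 CPM, 219 were lower and 867 higher in that comparison. In members without both lineages the median ratio was 0.497. Among the smallest ratios of genes above 50 CPM were Igfbp4 and Dapl1 (0.698 and 0.718), transcripts of naive T cells, the transcription factor Id3 (0.701), the kinase Pdk1 (0.716), the exchange factor Rasgrp2 (0.730) and Cd69 (0.740), which retains T cells in tissue. Gm8369, Ifi208, Rgcc and 2310009A05Rik followed, between 0.742 and 0.753.

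Surface tags were not used by the rule and were tested. Of 197 named tags, 9 were higher (4.57%) and 1 was lower (0.508%) in cycling than in Mki67-negative cells by edgeR's quasi-likelihood test with library as a block. A feature was called when its Benjamini-Hochberg adjusted p was below 0.05 and it changed by 1 or more on the log2 scale. The tags that rose most were I-A/I-E, the class II antigen-presenting molecule (log2 fold change 1.36 ± 0.158, SE, edgeR adjusted p = 0.0119), CD39, an ectonucleotidase (1.30 ± 0.215, edgeR adjusted p = 0.0182), KLRG1 (1.30 ± 0.279, edgeR adjusted p = 0.0248), GITR, a costimulatory receptor of regulatory cells (1.28 ± 0.133, edgeR adjusted p = 0.00950), and the adhesion molecule CD54 (1.22 ± 0.170, edgeR adjusted p = 0.0144). CD29, CD38, ICOS and Ly-6A/E also rose, and CD205, a receptor of dendritic cells, fell by 2.44. Barcodes with at least 5 myeloid and B cell UMIs were 58.1 to 63.2% of the members of a library, against 21.2 to 24.7% of all Mki67-negative cells. The part of these barcodes in the tags, I-A/I-E among them, was not tested. The CD205 tag also differed among the Mki67-negative sums, with 19759, 9142, 2878 and 8343 tag CPM in Mki67-negative cells and 1168, 1311, 927 and 808 in cycling cells.

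The scaling of the tags matters to their size. The fit sets the median tag near 0 (0.02), whereas in plain CPM the median log2 difference of cycling from Mki67-negative cells was -0.53, and the 9 tags that rose then had differences of 0.30 to 0.99, with 6 of them higher in all 4 libraries. Against depth-matched cells the median tag was at 0.05 and the 9 tags had differences of 0.53 to 1.93, with 7 higher in all 4 libraries. Isotype control antibodies, which bind no mouse antigen, took 0.129 to 0.179% of the tag UMIs in cycling cells, 0.148 to 0.176% in depth-matched cells and 0.232 to 0.311% in all Mki67-negative cells. Without barcodes of both lineages, with the stricter rule for Mki67 and Top2a or without sh-B7-H3 (1) 2, the same test called 0 tags, and the number at an unadjusted p under 0.05 with all members was 95.

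To determine whether the hairpin against B7-H3 goes with a different state of the cycling cells, RNA was summed over the members of each library (496808, 386615, 1068920 and 1671168 UMIs) and compared by the quasi-likelihood test of edgeR. Of 7156 genes tested, 13 were higher (0.182%) and 10 lower (0.14%) in sh-B7-H3 (1) by the same limits. Ifng, Eomes, Lag3 and Nkg7 were among the genes that rose, and Cenpf, Cks2 and Icos among those that fell. Groups did not overlap, whatever the test, for 23.9% of the genes tested in the higher and for 22.4% in the lower direction. Values below are CPM normalised by TMM, a scaling that lines up the bulk of genes, and log2 fold changes are those of sh-B7-H3 (1) over sh-NC with their SE.

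Ifng, the interferon of effector T cells (ENSMUSG00000055170, GRCm38 chr10:118441046-118445892), had 34.0 and 21.5 CPM in the sh-NC libraries and 129 and 136 CPM in the sh-B7-H3 (1) libraries. It rose by 2.22 ± 0.258 (edgeR adjusted p = 0.00471), from a mean of 27.8 ± 8.89 to 133 ± 4.49 CPM (SD, n = 2 each). A UMI of Ifng was held by 6 of 19, 4 of 16, 19 of 31 and 26 of 48 members, but the UMIs were concentrated, since a single barcode gave 70 of 141 UMIs in sh-B7-H3 (1) 1 and another gave 89 of 220 in sh-B7-H3 (1) 2. Eomes (chr9:118478212-118486132) rose by 1.95 ± 0.278 (edgeR adjusted p = 0.0176), from 31.9 and 21.5 to 116 and 96.3 CPM, and was spread over more cells, 9 of 35 in sh-NC and 63 of 79 in sh-B7-H3 (1). Lag3 (chr6:124904361-124911705) rose by 1.5 ± 0.232 (edgeR adjusted p = 0.0196), from 61.7 and 40.3 to 142 and 152 CPM, with a UMI in 10 of 35 and 62 of 79 cells. For each of these genes both sh-B7-H3 (1) libraries lay above both sh-NC libraries. Among the single-lineage sh-B7-H3 (1) members, 18 of 22 CD8 and 6 of 16 CD4 cells held Eomes. Lag3 was held by 19 of 22 and 6 of 16. The other sh-B7-H3 (1) holders were barcodes of both lineages or of neither, and these pooled counts were not set against depth-matched cells. Tox, a factor of chronically stimulated T cells, rose by 1.33, the granule protein gene Nkg7 by 1.27, the chemokine gene Ccl5 by 1.25 (-1.19, not called, in members with at most 3000 genes), the protease inhibitor gene Serpina3g by 1.57 and the mitochondrial tRNA synthetase gene Lars2 by 1.07 (edgeR adjusted p from 0.0196 to 0.0310).

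Among the genes that fell, Cenpf (chr1:189640606-189688086), whose promoter is printed above, had 70.2 and 104.7 CPM in sh-NC and 31.2 and 22.8 in sh-B7-H3 (1), a log2 fold change of -1.70 ± 0.297 (edgeR adjusted p = 0.0331). Cks2 had 181 and 174 against 78.0 and 61.7 CPM (-1.36 ± 0.196, edgeR adjusted p = 0.0176). Over the alternatives that tested it, its change ran from -1.58 to -0.00932. Icos had 164 and 179.8 against 78.0 and 88.3 CPM (-1.04 ± 0.186, edgeR adjusted p = 0.0385), and with the stricter rule for Mki67 and Top2a it was at 0.95, not called. The survival kinase gene Pim1 (-1.12) and the macrophage chemokine gene Ccl12 (-1.78) were also called. The calls below the level of 50 CPM or outside the naming rule were Nr4a2 (2.68), Rgs16 (1.94), Tcrg-C1, Gm42418 (1.68) and AY036118 (1.32) in the higher and Zfhx3 (-3.86), Cd68 (-3.16), Ifitm2 (-2.51), Gm43305 (-2.43) and Bbc3 (-2.16) in the lower direction. Zfhx3 had 29 and 5 UMIs in sh-NC from 3 and 1 barcodes, and a single barcode gave 22 of the 39 Bbc3 UMIs in sh-NC 1. Without sh-NC 1 Zfhx3 was too low to be tested, and Cd68 (-1.59) and Bbc3 (-1.59) were not called. Gm42418 and AY036118 overlap on opposite strands of chromosome 17 and carry ribosomal RNA sequence, so their counts are uncertain. Tcrg-C1, a gamma T cell receptor constant gene, had 0 UMIs in all sh-NC members and 79 UMIs in sh-B7-H3 (1), at least 8.49-fold higher when the sh-NC group is set at a floor of 3 UMIs. It passed the filter on low counts through sh-B7-H3 (1) alone, so its call is no independent support. It was held by 0 of 30 CD8 members and by 2 of 27 CD4 members. These gave 19 UMIs in sh-B7-H3 (1) 1, of which a single barcode gave 16.

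**Figure D3:**
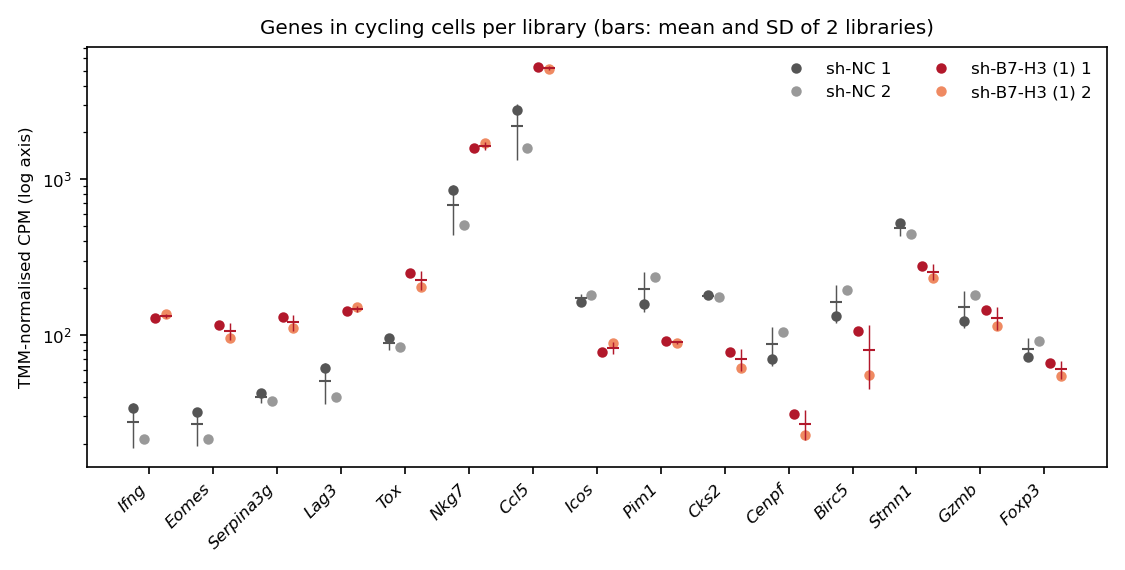
TMM-normalised CPM (log y axis) of 15 genes (x axis) in the cycling cells of each library, with the mean and SD of the 2 libraries of a group. Ifng, Eomes, Serpina3g, Lag3, Tox, Nkg7 and Ccl5 lie higher in both sh-B7-H3 (1) libraries, Icos, Pim1, Cks2, Cenpf, Birc5, Stmn1 and Foxp3 lie lower, and Gzmb overlaps between the groups.

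The number of calls changed with the test and with the libraries and barcodes kept. The DESeq2 test made 16 calls and kept 14 of the 23, without Cenpf, Icos, Pim1, Ccl12, Serpina3g, Lars2, Rgs16, Bbc3 and Tcrg-C1. Leaving out sh-NC 1, sh-NC 2, sh-B7-H3 (1) 1 and sh-B7-H3 (1) 2 in turn gave 171, 422, 3 and 13 calls in place of 23. In these fits the group of 1 library was assumed to vary like the other group, and all of the 23 genes tested in each kept their direction (22 without sh-NC 1, 23 in each of the others). With mitochondrial UMIs up to 10% there were 5 calls, 4 of them among the 23, and all 23 kept their direction. Without barcodes of both lineages 20 of the 23 called genes were tested and 3 were called in the same direction, Ifng (3.69, edgeR adjusted p = 0.00621), Gm42418 and AY036118. Eomes, Lag3, Tox and Icos kept their sign at 2.65, 1.64, 1.62 and -1.36 but were not called, and Cenpf was at 0.0797. Over all alternatives that tested them, the change ran from 0.93 to 3.69 for Ifng and from 1.12 to 3.08 for Eomes. It ran from 0.33 to 4.19 for Lag3 and from 0.37 to 1.88 for Tox. Without barcodes rich in myeloid and B cell UMIs Ifng (2.85), Nkg7, Gm42418 and AY036118 were called of 16 tested. Without sh-B7-H3 (1) 1 only Gm42418 of the 23 was called, and without sh-B7-H3 (1) 2 there were 8.

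By list, cytokine and inhibitory receptor genes lay mostly above 0 on the log2 scale, and mitotic and regulatory T cell genes mostly below 0, with few calls. Of 10 cytokine and chemokine genes 6 were tested, 2 were called higher (Ifng and Ccl5) and the median log2 fold change was 1.38. Of the inhibitory receptor list all 9 genes were tested, the receptor gene Lag3 and the nuclear factor gene Tox were called higher, 8 were above 0 and the median was 0.88, with Pdcd1 at 117 and 51.0 against 169 and 146 CPM (not called). Ctla4 was the exception, with 72.4 and 126 CPM in sh-NC and 45.9 and 58.6 in sh-B7-H3 (1). The cytolytic list had a median of 0.16, with Nkg7 called of 9 tested. Gzmk had 66.0 and 40.3 against 117 and 109.9 CPM, which was not called (1.06 ± 0.242, edgeR adjusted p = 0.0807), while Gzmb overlapped between the groups with 123 and 179.8 against 144 and 114 CPM.

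The mitosis list had a median log2 fold change of -1.42, with 24 of 25 tested genes below 0, 1 called lower, and the groups not overlapping in the lower direction for 20 of 25, against 22.4% of all genes tested. Ube2c had 134 and 129 CPM in sh-NC and 63.3 and 19.1 in sh-B7-H3 (1), and Hmmr, a spindle protein gene, had 72.4 and 88.6 against 35.8 and 8.64 CPM. Neither was called. The replication list had a median of -0.38, with 3 of 23 above 0, none called, and Pcna at 168 and 129 against 154 and 159 CPM. Stmn1 had 521 and 446 against 277 and 234 CPM (-0.92, edgeR adjusted p = 0.0456), short of the limit on the fold change, and Birc5 had 132 and 196 against 106 and 55.6 CPM. As a description, the rule genes had 211 and 314 against 166 and 115 CPM (Mki67) and 275 and 204 against 153 and 89.5 CPM (Top2a), and the library with the deepest members, sh-B7-H3 (1) 2, had the lowest value of both. The part of depth in these values was not tested.

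The lower level of mitotic genes was smaller without barcodes of both lineages. There 11 of 18 tested mitosis genes were below 0 with a median of -0.20, and the replication list had a median of 0.38. Without barcodes rich in myeloid and B cell UMIs the medians were -0.34 and 0.31, and with the stricter rule for Mki67 and Top2a they were -0.85 and -0.10. In the CD8 members 10 of 12 tested mitosis genes were above 0 with a median of 0.45, while in the CD4 members 4 of 4 were below 0 with a median of -1.05, and the difference between the lineages was not tested. The cytokine list kept its sign in these subsets, at 3.08, 2.37 and 1.69, and the inhibitory receptor list too, at 1.28, 1.23 and 1.88.

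The regulatory T cell list had 11 of 11 tested genes below 0 with a median of -0.61 and none called. Groups did not overlap in the lower direction for 8 of 11, against 22.4% of all genes tested. Foxp3 had 72.4 and 91.3 CPM in sh-NC and 66.1 and 54.3 in sh-B7-H3 (1), and Tnfrsf4 had 166 and 399.9 against 94.6 and 113 CPM (-1.42, edgeR adjusted p = 0.0695). Without both-lineage barcodes the median of this list was -0.65, and without those rich in myeloid and B cell UMIs it was -0.01. In the CD4 members alone 3 of 9 tested regulatory genes were above 0, with a median of -0.18. In the CD8 members 0 of 4 were above 0, with a median of -1.03, and the difference between the lineages was not tested. The glycolysis list had a median of -0.48, with 8 of 10 tested genes below 0 and none called. The lineage list (Cd4, Cd8a, Cd8b1, Zbtb7b, Runx3 and Cd40lg) had 6 of 6 genes above 0 without overlap of the groups, against 23.9% of all genes tested. Its median was 0.65 and none was called. The resting list had a median of -0.04, the effector transcription factors 0.11 with Eomes called, the IL-2 receptor list 0.25, the interferon response list 0.36, the cycle inhibition list 0.25 and the immediate early list -0.42, against -0.01 for all genes tested. Myeloid markers had a median of -1.75 with Cd68 called lower, and this rested on sh-NC 1: a single barcode there gave 3139 of 3438 Apoe UMIs, and without sh-NC 1 the median was 0.22. Of the B cell, NK, gamma-delta and tumor and stroma lists 2, 1, 2 and 1 genes were tested, and Tcrg-C1 was the only gene called among them.

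**Figure D4:**
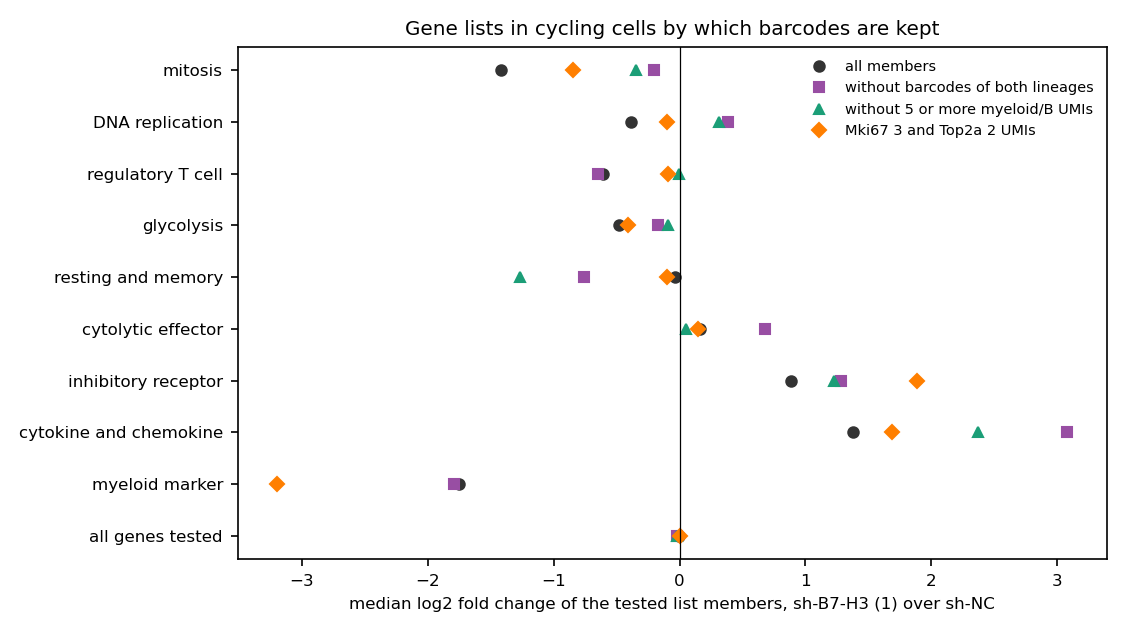
Median log2 fold change of the tested members of each list (x axis, sh-B7-H3 (1) over sh-NC; lists on the y axis) in all members and in 3 subsets. The medians of the inhibitory receptor and cytokine lists stay to the right in every subset, whereas the mitosis list moves from -1.42 to -0.20 without barcodes of both lineages.

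Lineages were then compared by themselves, on few cells. CD4 members were 3 of 8, 8 of 11, 5 of 16 and 11 of 22 of the CD4 plus CD8 members, with group means of 55.1 ± 24.9% and 40.6 ± 13.3% (SD, n = 2 each; exact permutation p = 0.667), a difference within the spread between libraries. By tag lineage the CD4 shares were 57.1 and 77.8% against 40 and 55%, without overlap of the groups (exact permutation p = 0.333, the lowest possible). With at most 3000 genes they were 1 of 1 and 5 of 5 against 3 of 6 and 5 of 9. Foxp3 was held by 58.3 ± 11.8% and 46.4 ± 37.3% of the CD4 members (exact permutation p = 1). In the CD8 members 3 of 2002 genes tested were called (0.15%), all higher in sh-B7-H3 (1). Ifng had 15.1 and 52.2 against 516 and 545 CPM (4.16, edgeR adjusted p = 0.0367), the chemokine gene Ccl4 had 105.5 and 191 against 2295 and 2495 CPM (4.03, edgeR adjusted p = 0.00505), and Gm42418 was called too (2.26). With the stricter rule, or with the replicate number as a block, none of these was called, and below the Otsu doublet score Ccl4 alone was called. Ifng was also not called without barcodes rich in myeloid and B cell UMIs (4.32, edgeR adjusted p = 0.130) and by tag lineage (3.82, edgeR adjusted p = 0.0860). The same single barcodes gave 70 of 81 and 89 of 114 Ifng UMIs and 223 of 360 and 334 of 522 Ccl4 UMIs of the CD8 members. In sh-NC the Ifng UMIs of the CD8 members were 2 and 3, each from a single cell. Ifng thus passed the filter on low counts through sh-B7-H3 (1) alone, so its call in CD8 members is no independent support. In the CD4 members Gm42418 alone was called of 1412 genes (0.0708%).

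Mki67-negative cells put these values in context. Among them 1178 of 14470 genes were higher (8.14%) and 118 lower (0.815%) in sh-B7-H3 (1) by edgeR's quasi-likelihood test. Their sums held 42074809 to 109629328 UMIs per library, far more than those of the cycling cells. The difference of the effect between cycling and Mki67-negative cells, tested in 1 edgeR fit of all 8 sums, passed for 40 of 13231 genes in the higher (0.302%) and 254 in the lower direction (1.92%). Without each library in turn the total of 294 became 170, 579, 111 and 120. Of 12 regulatory T cell genes 9 passed, all with a lower effect in cycling cells (median -1.58): Ikzf2 had a log2 fold change of -0.39 in cycling and 1.23 in Mki67-negative cells (difference -1.57, edgeR adjusted p = 2.03e-08), and Foxp3 had -0.44 and 0.69 (difference -1.10, edgeR adjusted p = 0.00967). Of 26 mitosis genes 11 passed and of the 9 genes of the inhibitory receptor list 4 (Ctla4, Havcr2, Pdcd1 and the ectoenzyme gene Cd38), all lower in cycling cells, with Pdcd1 at 0.86 and 2.12 (difference -1.23, edgeR adjusted p = 0.00209). Mitosis genes act in the same process as the rule genes, so their differences are no independent result. Ifng, Eomes and Tox did not pass, with differences of -0.19, 0.40 and 0.12. Of 12 myeloid markers 10 passed as well, with a median of -3.09, and without sh-NC 1 it was -1.32. Without barcodes of both lineages 5 regulatory, 0 mitosis genes and 2 genes of the inhibitory receptor list passed, and without those rich in myeloid and B cell UMIs 1, 0 and 1.

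Surface tags of the cycling cells gave no call between the groups. Of 197 tags edgeR called 0 (0%), 34 had an unadjusted p under 0.05, and DESeq2 called 3. The tag closest to the limit was CXCR6, a chemokine receptor of tissue T cells, with 916 and 815 tag CPM in sh-NC and 2305 and 2167 in sh-B7-H3 (1), a log2 fold change of 1.44 ± 0.166 (edgeR adjusted p = 0.0510). PD-1 had 4693 and 3348 against 6818 and 6898 tag CPM (0.85, edgeR adjusted p = 0.208), and ICOS had 2061 and 4411 against 1239 and 1182 (-1.35, edgeR adjusted p = 0.208). In both cases the sh-B7-H3 (1) libraries lay on the same side of the sh-NC libraries as the RNA of the gene, Pdcd1 and Icos.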

How the data were processed

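RNA and tag counts of single CD3+ tumor T cells were analysed in 4 libraries, 2 per group. The deposited values are raw UMI counts per gene and tag. The authors aligned reads to mm10 with STAR inside Cell Ranger, whose version differs between the study's methods and the file header. A tag without a name was left out, which left 197. Cells were filtered and chosen as stated at the start of the results. The members and gene lists were chosen with earlier results of these data known. Called barcodes numbered 7030 to 12112 per library. CD4 cells held a Cd4 UMI and at most 2 UMIs of Cd8a plus Cd8b1, CD8 cells at least 3 and no Cd4, and cells of both lineages at least 3 with Cd4. Tag lineages used Otsu thresholds per library. Scrublet (scanpy 1.11.5) marked 0 to 1 barcodes per library by its own threshold and had not worked, so no doublets were removed in the main fits.

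UMIs were summed per library and tested with edgeR 4.0.16 (quasi-likelihood, TMM, filterByExpr; limits: Benjamini-Hochberg adjusted p of 0.05, absolute log2 fold change of 1), and DESeq2 1.42.0 was an alternative. The difference of effects was fitted with library as a block, state, and state by group. Shares were compared with two-sided exact permutation tests (scipy 1.17.1). Genes were named from the lists, plus the 10 highest and 10 lowest called changes with a mean of 50 CPM and groups that do not overlap, leaving out mitochondrial, ribosomal, receptor segment and rRNA-bearing genes, and the 15 largest and 10 smallest ratios of cycling to Mki67-negative cells. Other called genes were named after their values were seen. The glycolysis gene Aldoa was left out because its symbol belongs to 2 gene IDs. The fits were tested on simulated data with planted log2 changes of 2. Of these, 93.96% were called in cycling cells, 76.51% in CD4 members, 17.37% in CD8 members and 42.05% for the difference of effects. False calls numbered 8, 3, 0 and 4. Few calls in CD8 members therefore do not show that few genes changed. The spread of the simulated counts was fixed and not estimated from these data. The dispersion was 0.02 for cycling cells and the difference of effects, and 0.1 for CD4 and CD8 members. The shares called hold for that spread only. Alternatives covered cell limits, rule limits, doublet scores, normalization, low-count filters, blocks and each library left out. Coordinates are from GENCODE M21.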

Additional observations from a re-analysis of the deposited data

Results flagged for a closer look

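For 58 of the 219 named genes tested, leaving out those of the selection rule, the effect of the hairpin against B7-H3 differed between cycling and Mki67-negative T cells, by the interaction term of edgeR's quasi-likelihood test with an adjusted p below 0.05 and a difference of at least 1. Values are the log2 fold change of sh-B7-H3 (1) over sh-NC in cycling cells minus that in Mki67-negative cells, so a negative value means a lower effect in cycling cells. All but Ly6c1, Egr1 and Trdc were negative. Over all 13231 genes 40 were higher and 254 lower by the same limits, and since some genes were named for their called changes, nothing is read from the share of named genes.

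By list, 11 of 26 mitosis, 1 of 26 replication, 2 of 12 cycle inhibition, 9 of 12 regulatory and 10 of 12 myeloid genes passed. Genes of the cell cycle were Hmmr (-3.94), Ube2c (-3.91), Aurkb (-3.43), Cdk1 (-3.34), Kif11 (-3.21), Nusap1 (-3.11), Bub1b (-3.03), Tpx2 (-2.88), Prc1 (-2.66), Ccnb2 (-2.64), Birc5 (-2.38), Cks2 (-1.78), Cdca8 (-1.76), Cenpa (-1.47), Tyms (-1.39) and the cycle inhibitor Cdkn2c (-1.71), with edgeR adjusted p from 5.6e-07 to 0.0422. Without barcodes of both lineages no gene of the mitosis list passed. Cell cycle genes act in the same process as the rule genes, so their differences are no independent result.

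Regulatory T cell and activation genes were Klrg1 (-2.23), Tnfrsf4 (-1.78), Ctla4 (-1.70), Ikzf4 (-1.62), Tnfrsf9 (-1.59), Ikzf2 (-1.57), Nrp1 (-1.41), Il2ra (-1.15) and Foxp3 (-1.10) of the regulatory list, Havcr2 (-1.60), Pdcd1 (-1.23) and the ectoenzyme gene Cd38 (-1.44) of the inhibitory receptor list, and the costimulatory receptor Icos (-1.56). Of the regulatory list 5 genes passed without barcodes of both lineages and 1 without those rich in myeloid and B cell UMIs. Effector genes were Zeb2 (-3.14), Irf8 (-1.90), Prdm1 (-1.70), Bhlhe40 (-1.35), Id2 (-1.25), Gzmb (-1.23), Pim1 (-1.11), Ccl5 (-1.05) and Il2rb (-1.0), beside the glycolysis gene Tpi1 (-1.33).

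Myeloid and B cell genes were Cd68 (-3.59), Lyz2 (-3.30), Csf1r (-3.23), Apoe (-3.13), C1qa (-3.09), Fcer1g (-2.80), C1qb (-2.73), Tyrobp (-2.59), C1qc (-2.54), Ccl12 (-2.16) and Igkc (-1.66). Their summed myeloid level in cycling cells was 11522 CPM in sh-NC 1 and 1263 to 1920 CPM in the other 3 libraries. The remaining genes with a lower effect were Zfhx3 (-4.21), Ifitm2 (-3.44) and Gm43305 (-1.95). Egr1, an immediate early gene (1.39), and Ly6c1, a gene of resting and memory cells (2.23), had a higher effect in cycling cells.

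The other 3 genes had too few UMIs to be tested in the cycling sums alone. The cycle inhibitor Cdkn1a (-6.40) had 389, 2, 12 and 6 UMIs in the cycling cells of sh-NC 1, sh-NC 2, sh-B7-H3 (1) 1 and sh-B7-H3 (1) 2, of which a single barcode gave 388 in sh-NC 1. The myeloid marker Cd14 (-4.24) had 140, 0, 13 and 5 UMIs, of which a single barcode gave 117 in sh-NC 1. Trdc, a delta T cell receptor constant gene, had 0 UMIs in both sh-NC libraries and 25 and 15 in sh-B7-H3 (1), so its fitted value of 11.7 depends on the prior count and is no measure of size.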

How the results depend on the processing

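Among the summary values, 93 of the alternatives were marked as kept, 56 as moved and 3 as reversed. A share counted as kept when the difference between the groups kept its sign, whatever its size. A number of calls counted as kept when it stayed within a fixed fold of the main number. For single features 305 kept their side of the threshold, 203 lost the call and 3 reversed. The share of cycling cells stayed higher in sh-B7-H3 (1) under all 14 alternatives tried. The cause of a change was not tested unless fewer cells or libraries entered by construction.

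Calls between the groups in cycling cells were 317 without a filter on low counts, 1 with at most 3000 genes, 5 with mitochondrial UMIs up to 10%, 0 with the stricter rule, 126 below the Otsu doublet score, 3 without both lineages, and 3 to 422 with a library left out. In CD4 cells they were 4 without the count filter, 0 with at most 3000 genes and with mitochondrial UMIs up to 10%, 2 with 1 Mki67 UMI, and 1 to 10 with a library left out. In CD8 cells they were 37 without the count filter, 7 by DESeq2, 5 with mitochondrial UMIs up to 10%, 13 with 1 Mki67 UMI, 0 with the stricter rule, 1 below the Otsu score, and 22 to 71 with a library left out. Tags called between the groups were 1 with DESeq2 size factors, 3 by DESeq2, 3 with at most 3000 genes, 2 with 1 Mki67 UMI, 12 without barcodes rich in myeloid and B cell UMIs, and 0 to 12 with a library left out.

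The difference between states had 144 calls by DESeq2, 64 with at most 3000 genes, 40 with mitochondrial UMIs up to 10%, 161 with the stricter rule, 16 without barcodes rich in myeloid and B cell UMIs, 116 without both lineages, and 111 to 579 with a library left out. Tags between states had 3, 6, 0 and 0 calls with at most 3000 genes, mitochondrial UMIs up to 10%, the stricter rule and without both lineages, and 0 to 12 with a library left out.

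The difference in the CD4 share (sh-B7-H3 (1) minus sh-NC, in percentage points) ranged from -32.1 to 3.13 with a library left out and was -47.2 with at most 3000 genes and -20.0 by tag lineage. That in the Foxp3 share was 25.8 without barcodes rich in myeloid and B cell UMIs and ranged from -38.3 to 14.4 with a library left out. Ccl5 was at -1.19 with at most 3000 genes, Cenpf at 0.0797 without both lineages and Icos at 0.95 with the stricter rule.

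Samples with the same number did not deviate together (correlation 0.00993 in cycling and -0.311 in Mki67-negative cells), so the numbers do not pair the libraries. With the replicate number as a block 164 genes were called in cycling, 0 in CD4 and 0 in CD8 cells. With the crossed pairing, chosen after seeing the data, they were 110, 5 and 33, with 3 tags. The Otsu score, the subset without both lineages, the depth-matched cells and the naive-type background were likewise added after seeing the data. No value could be had for CD4 genes and the Foxp3 share under the stricter rule, nor for CD8 genes with at most 3000 genes. The smallest of the cycling sums held 386615 UMIs of 16 cells.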
